A study of Mus musculus with 6 samples.

Results

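To follow the brakes on Wnt signaling in the developing molar root, the transcripts of 10 Wnt inhibitor genes were read in the apical tissue of the root furcation in control and Lhx6-/- mice. The genes are Dkk1, Dkk2, Dkk3, Kremen1, Kremen2, Sost, Sostdc1, Notum, Shisa2 and Shisa3. They were chosen by name, were all 10 found among the 23594 genes of the deposited table, and all passed the filter on low counts that left 20114 genes to test. Levels are given in counts per 1000000 (CPM), scaled between libraries by edgeR's TMM method. In the Lhx6-/- libraries Notum was 1.87-fold lower, Kremen2 stood at 1 or 2 counts a library against 17 to 31 in control, Shisa3 was 1.64-fold higher, and the other 7 inhibitors did not meet the rule of the study, a change of 1.5-fold or more at p under 0.05 before adjustment.

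The study compared 3 control libraries, whose genotype is given as wild type, with 3 Lhx6-/- libraries, all from C57BL/6 mice aged 4.5 days (PN4.5) that received no treatment. Lhx6 encodes a LIM homeodomain transcription factor of the tooth mesenchyme, and the Lhx6-/- mice were homozygous for a knock-in of CreER that interrupts the gene in every tissue. Laser capture cuts chosen areas from a stained section under a microscope, and each library held tissue cut from several first mandibular molars, pooled. The labels do not say how many animals stand behind a library, so p-values measure the spread between these pools. Lhx6 itself was read at 27.8, 18.2 and 21.9 CPM in control replicates 1, 2 and 3 and at 12.8, 9.82 and 10.5 CPM in Lhx6-/- replicates 1, 2 and 3. Its groups did not overlap, and it was lower by a log2 fold change of -1.04 (adjusted p = 0.0210 from edgeR with Benjamini-Hochberg adjustment, n = 3 and 3, standard error 0.16).

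Libraries held 60132323 to 76157433 estimated counts, and the biological coefficient of variation over all genes was 0.202. The 10 mesenchymal markers of the tooth summed to 1410 to 1470 CPM in control and 1580 to 1590 CPM in Lhx6-/- libraries, with 8 of 10 higher, 6 of 10 at an unadjusted p under 0.05 from edgeR and 1 (Dlx1) higher by the rule. Enamel-forming cells were present as well, with ameloblast markers summing to over 115000 CPM in every library, although the label names the apical furcation. Several marker lists lay apart between the genotypes, those of dental epithelium, dental mesenchyme, odontoblasts, endothelium and erythroid cells. The 9 markers of dental epithelium summed to 1230, 1910 and 1340 CPM in control replicates 1, 2 and 3 and to 866, 943 and 994 CPM in Lhx6-/- replicates, and the keratin genes Krt5, Krt14 and Krt17 were among those lower by the same rule. The 4 Y-linked genes summed to 17.4, 58.0 and 14.6 CPM in control and to 55.1, 92.1 and 88.5 CPM in Lhx6-/- libraries, where control replicate 2 lay just above Lhx6-/- replicate 1. Xist, which is transcribed from the inactive X chromosome of females, was at 792, 411 and 628 CPM in control and at 290, 0.228 and 0.0537 CPM in Lhx6-/- replicates 1, 2 and 3, so female tissue was nearly absent from Lhx6-/- replicates 2 and 3 and the sex make-up of the pools moved with genotype. The epithelial and the Y-linked level were entered as covariates in further fits of every gene, and their part in the results was otherwise not tested.

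Wnt proteins bind Frizzled receptors together with the co-receptors Lrp5 and Lrp6, which leads to stabilised beta-catenin and to transcription of target genes such as Axin2. The inhibitors act at several steps of this chain. Dkk1, Dkk2, sclerostin (the product of Sost) and Sostdc1 are secreted and bind the Lrp co-receptors, while Dkk3 is a divergent member of the Dkk family that binds them poorly. Kremen1 and Kremen2 are membrane receptors that bind Dkk proteins together with Lrp6 and remove Lrp6 from the cell surface. Notum is a secreted carboxylesterase that strips the lipid from Wnt proteins, and proteins of the Shisa family hold Frizzled and FGF receptors back in the endoplasmic reticulum. In teeth, Sostdc1 is known as an antagonist of both Wnt and BMP signaling that limits tooth number and shapes the cusps.

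Which of these brakes were present in the tissue was read from levels per kilobase of exon, the only scale on which the genes can be compared with each other. Sostdc1 was the most abundant, with 34.5, 33.7 and 32.6 CPM per kilobase in control replicates 1, 2 and 3 and 34.9, 29.7 and 31.4 in Lhx6-/- replicates 1, 2 and 3. Dkk3 followed at 20.8 to 25.7 CPM per kilobase over the 6 libraries. All libraries placed Sostdc1 above Dkk3, and all placed Dkk3 above the rest. Dkk1 (10.4 to 14.5) and Kremen1 (11.5 to 13.2) could not be ordered on this length, since their ranges overlapped. With the longest transcript as length in place of all exons they changed places. Their control means were then 19.7 for Kremen1 and 13.1 for Dkk1, so the level of Kremen1 depends on the length used. Below them came Sost at 5.75 to 9.52, Shisa2 at 3.89 to 7.52 and Notum at 3.72 to 7.89 CPM per kilobase, 3 genes whose ranges also overlapped. Dkk2 lay at 2.06 to 2.81, Shisa3 at 0.353 to 0.998 and Kremen2 at 0.218 CPM per kilobase or less.

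**Figure D1:**
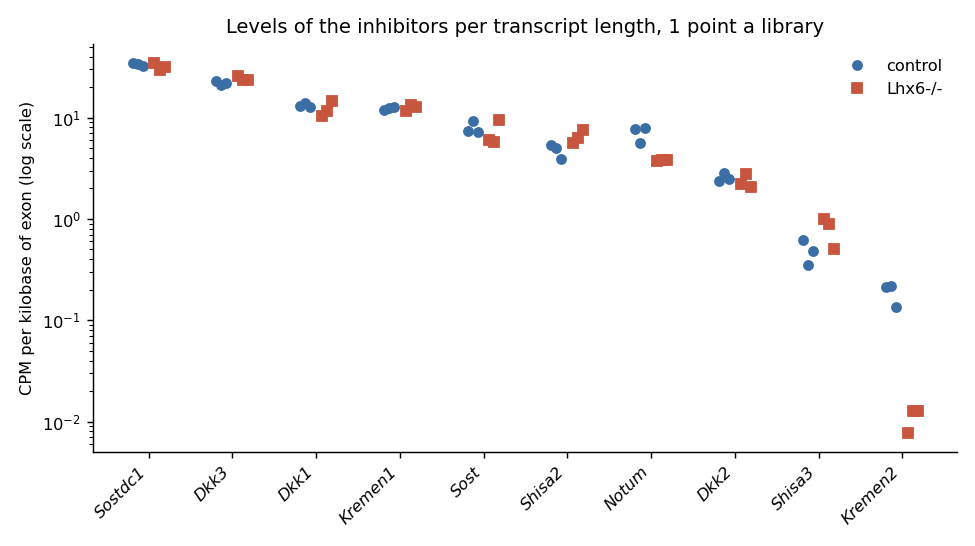
Levels of the 10 inhibitors in CPM per kilobase of merged exon (vertical axis, log scale), with circles for the 3 control libraries and squares for the 3 Lhx6-/- libraries. Genes run from left to right by their mean over the 6 libraries. Notum lies above Shisa2 in control and below it in Lhx6-/- tissue, and the Kremen2 squares, which rest on 1 or 2 counts, lie far below its circles.

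By the group means, 2 pairs of neighbours changed places between genotypes, Dkk1 with Kremen1, whose libraries overlapped, and Notum with Shisa2. Notum lay above Shisa2 in each control library (7.67 against 5.32, 5.59 against 5.01 and 7.89 against 3.89 CPM per kilobase in replicates 1, 2 and 3) and below it in each Lhx6-/- library (3.72 against 5.66, 3.79 against 6.25 and 3.79 against 7.52). These changes of place are a description and were not tested. Notum made up 6.78% of the members' summed level in control and 3.72% in Lhx6-/- tissue, and Shisa2 4.56% and 6.4%. The summed level of the 10 genes was 106, 104 and 102 CPM per kilobase in control and 101, 97.3 and 105 in Lhx6-/- libraries, ranges that overlapped. Sostdc1 alone held 32.3% of it in control and 31.6% in Lhx6-/- tissue.

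Then, the effect of Lhx6 loss on each inhibitor was tested in the fit of all genes. Of the 10 genes, 3 met the rule, where 3.28% of all tested genes did, and Notum, Kremen2 and Shisa3 are these 3. Kremen2 passed the filter on low counts through its control libraries alone, so a gene of its kind had to differ, and without it 2 members (Notum and Shisa3) met the rule. In the 2 directions, 1 of the 10 was higher (against 1.58% of all tested genes) and 2 were lower (against 1.71%). After Benjamini-Hochberg adjustment over all tested genes, 1 of the 10 (Notum) had an adjusted p under 0.05 from edgeR, against 0.403% of all genes. An unadjusted p under 0.05 at any fold was reached by 4 of the 10, Shisa2 being the other one, against 9.81% of all genes. The libraries of the 2 genotypes did not overlap for 4 of the 10 (Notum, Kremen2, Shisa2 and Dkk3), against 15.5% of all genes. Kremen2 is also in the counts of lower genes, of p under 0.05 and of no overlap, and adds no support to them. Without it, Notum was lower by the rule. Notum, Shisa2 and Shisa3 then had an unadjusted p under 0.05 from edgeR, and Notum, Shisa2 and Dkk3 did not overlap. The median log2 fold change of the 10 was -0.08, beside -0.002 over all tested genes, and the median size of the change was 0.16, beside 0.14, so the differences lay in single members rather than in the list as a whole.

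**Figure D2:**
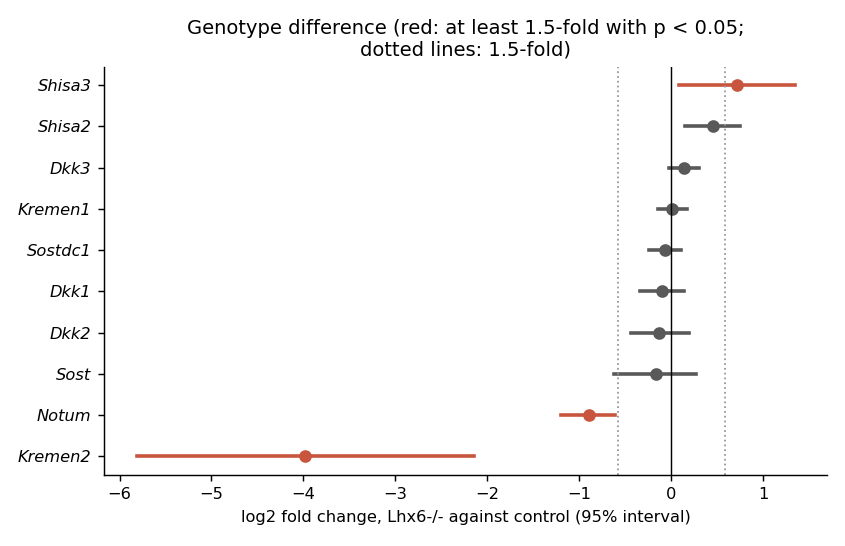
Log2 fold change of each inhibitor in Lhx6-/- against control libraries (horizontal axis), with its 95% interval from edgeR as a line. Red marks the 3 genes that met the rule, and dotted lines stand at 1.5-fold. Notum and Kremen2 lie left of 0, Shisa3 and Shisa2 right of it, and the intervals of the other 6 genes cross 0.

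Notum, the enzyme that inactivates Wnt proteins, showed the clearest difference. Its gene lies on the minus strand of chromosome 11 (chr11:120653788-120661175 on mm10) and has 13 merged exons. Notum was measured at 18.5, 13.5 and 19.0 CPM in control replicates 1, 2 and 3 and at 8.95, 9.12 and 9.12 CPM in Lhx6-/- replicates 1, 2 and 3. Every mutant library of Notum was under the lowest control, and the mutants lay close to each other, with a coefficient of variation of 1.07% against 18% in control. The mean was 17.0 ± 3.06 CPM in control and fell to 9.06 ± 0.0967 CPM in Lhx6-/- tissue (SD, n = 3 each), which is 53.4% of the control level. The log2 fold change was -0.90 (standard error 0.13, 95% interval -1.20 to -0.61, adjusted p = 0.0145 from edgeR with Benjamini-Hochberg adjustment), and Notum ranked 30 by p among all tested genes. In bulk tissue, fewer cells that express a gene and less of its RNA per cell cannot be told apart.

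The change in Notum was set beside the marker lists. Fitted by edgeR with the epithelial level as a covariate, Notum changed by -1.30 on the log2 scale (adjusted p = 0.0201). Fitted with the Y-linked level, it changed by -0.51, below 1.5-fold (adjusted p = 0.155 from edgeR). That fit called 347 of all tested genes at an adjusted p under 0.05, against 81 without a covariate. Per 1000 CPM of epithelial markers, Notum stood at 15.0, 7.06 and 14.1 in control replicates 1, 2 and 3 and at 10.3, 9.67 and 9.18 in Lhx6-/- replicates, so on this scale control replicate 2 lay below the mutants. Its adjusted p also rose over 0.05 without control replicate 3 (0.115), Lhx6-/- replicate 1 (0.0836) or Lhx6-/- replicate 2 (0.0967), while the log2 fold change stayed between -1.05 and -0.81 when any 1 library was left out of the edgeR fit. Exons of Notum overlap those of Notumos (0.887 ± 0.123 CPM in control, 0.665 ± 0.178 CPM in Lhx6-/-) and Myadml2os (0.299 ± 0.174 and 0.117 ± 0.106 CPM), both on the other strand, and the sources used here do not say whether strand was used in counting. Both antisense genes were far lower than Notum.

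Kremen2, a receptor for Dkk proteins, was the rarest of the 10 and had the largest fold difference. It lies on the minus strand of chromosome 17 (chr17:23741197-23745833 on mm10) in 10 exons. Its counts were 28, 31 and 17 in control replicates 1, 2 and 3 and 1, 2 and 2 in Lhx6-/- replicates 1, 2 and 3, or 0.45, 0.464 and 0.287 CPM against 0.0164, 0.0269 and 0.0269 CPM. Each control library lay above every Lhx6-/- library, but the mutant values rest on 5 counts in all. Set against 76 counts in control, the ratio of control to Lhx6-/- was 17.0 after scaling, with an exact 95% interval of 6.96 to 53.7 that covers counting error only. The fitted value was -3.98 on the log2 scale (standard error 0.84, adjusted p = 0.0869 from edgeR), so Kremen2 met the fold and p rule and not the adjusted threshold. Since it reached the fit only through the control libraries, where it was high, its counts are a better guide than this test. The adjusted p ran from 0.00726 to 0.473 over 17 alternative fits, the lowest with DESeq2 and the highest with the epithelial level as covariate. The rule was met in all 17, but each refits a gene retained through its control libraries, so this adds no support.

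Kremen2 relative to 1000 CPM of epithelial markers was 0.365, 0.243 and 0.214 in control replicates 1, 2 and 3 and 0.0189, 0.0285 and 0.027 in Lhx6-/- replicates, so the groups stayed apart on this scale. An antisense gene that overlaps its exons, 9530082P21Rik, was higher than Kremen2 itself, at 3.6 ± 1.12 CPM in control and 3.9 ± 0.531 CPM in Lhx6-/- tissue (log2 fold change 0.11, standard error 0.24). Without knowledge of strand in the counting, reads of Kremen2 and of this gene cannot be told apart where they overlap. Kremen1, the paralog of Kremen2, was abundant and differed by less than the spread between libraries. Kremen1 (chr11:5191552-5261558, minus strand, mm10) was read at 91.5, 96.7 and 98.7 CPM in control replicates 1, 2 and 3 and at 89.0, 102 and 98.5 CPM in Lhx6-/- replicates. The genotypes overlapped fully, and the log2 fold change of Kremen1 was 0.01 (standard error 0.07, 95% interval -0.15 to 0.17, adjusted p = 0.98 from edgeR). Per kilobase, Kremen1 stood at 12.4 ± 0.485 CPM in control and Kremen2 at 0.189 ± 0.0462 CPM (SD, n = 3).

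**Figure D3:**
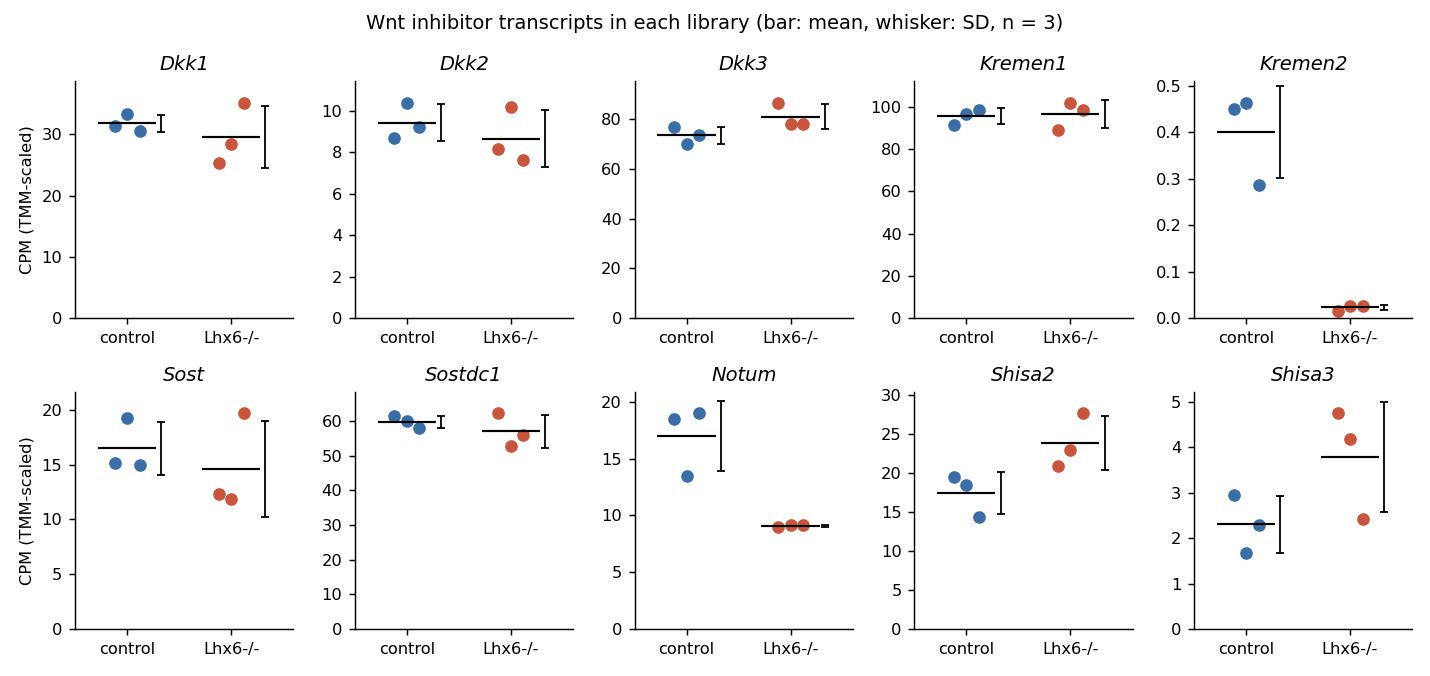
Levels of the 10 inhibitors in TMM-scaled CPM, a panel a gene and a point a library, on axes that start at 0. Horizontal bars are group means and whiskers the SD of 3 libraries. Control and Lhx6-/- points do not overlap for Dkk3, Kremen2, Notum and Shisa2, and overlap for the other 6 genes.

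Shisa3 and Shisa2, which hold Frizzled and FGF receptors inside the cell, were both higher in Lhx6-/- tissue by their means. Shisa3 (chr5:67607882-67623552, plus strand, mm10) was low, at 2.94, 1.68 and 2.3 CPM in control replicates 1, 2 and 3 and at 4.75, 4.19 and 2.42 CPM in Lhx6-/- replicates 1, 2 and 3. Lhx6-/- replicate 3 lay below control replicate 1, so the groups overlapped. The mean was 2.31 ± 0.632 CPM in control and 3.78 ± 1.22 CPM in Lhx6-/- tissue (SD, n = 3). On the log2 scale the difference was 0.71 (standard error 0.29, adjusted p = 0.441 from edgeR), and Shisa3 met the rule by its p before adjustment. With the epithelial level as a covariate Shisa3 stood at -0.01 on the log2 scale (adjusted p = 0.997 from edgeR), while adding the Y-linked level gave 1.40 (adjusted p = 0.115). The call under the rule was also lost without control replicate 2 (log2 fold change 0.53), control replicate 3 (0.71), Lhx6-/- replicate 1 (0.52) or Lhx6-/- replicate 2 (0.63). Atp8a1 overlaps an exon of Shisa3 on the other strand and was measured at 13.9 ± 1.14 and 14.1 ± 0.469 CPM.

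Shisa2 (chr14:59625308-59631660, plus strand, mm10) was more abundant, at 19.5, 18.4 and 14.3 CPM in control replicates 1, 2 and 3 and at 20.8, 22.9 and 27.6 CPM in Lhx6-/- replicates 1, 2 and 3. All Lhx6-/- libraries lay above all control libraries, by a narrow gap between control replicate 1 and Lhx6-/- replicate 1. The mean was 17.4 ± 2.75 CPM in control and 23.8 ± 3.5 CPM in Lhx6-/- tissue, a 1.37-fold difference that lay under the 1.5-fold of the rule (0.45 on the log2 scale, standard error 0.13, adjusted p = 0.264 from edgeR). With the epithelial level as covariate this was 0.56 (adjusted p = 0.58 from edgeR), while adding the Y-linked level gave 0.25 (adjusted p = 0.648). Per 1000 CPM of epithelial markers, Shisa2 stood at 15.8, 9.65 and 10.6 in control and at 24.0, 24.3 and 27.8 in Lhx6-/- replicates 1, 2 and 3, and Shisa3 at 2.39, 0.879 and 1.71 in control and at 5.48, 4.44 and 2.43 in Lhx6-/- replicates. On this scale each mutant library lay above each control library for both genes, the gap being narrow for Shisa3. The epithelial sum was lower in every Lhx6-/- library than in any control, so dividing by it raises the mutant values relative to control. In CPM the groups of Shisa3 overlapped. The receptors on which Shisa proteins act did not meet the rule, with 0 of 10 Frizzled receptors and 0 of 4 FGF receptors called by edgeR, DESeq2 or limma. An unadjusted p under 0.05 from edgeR was reached by 3 of the Frizzled receptors (Fzd1, Fzd2 and Fzd10) and by 0 of the FGF receptors.

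**Figure D4:**
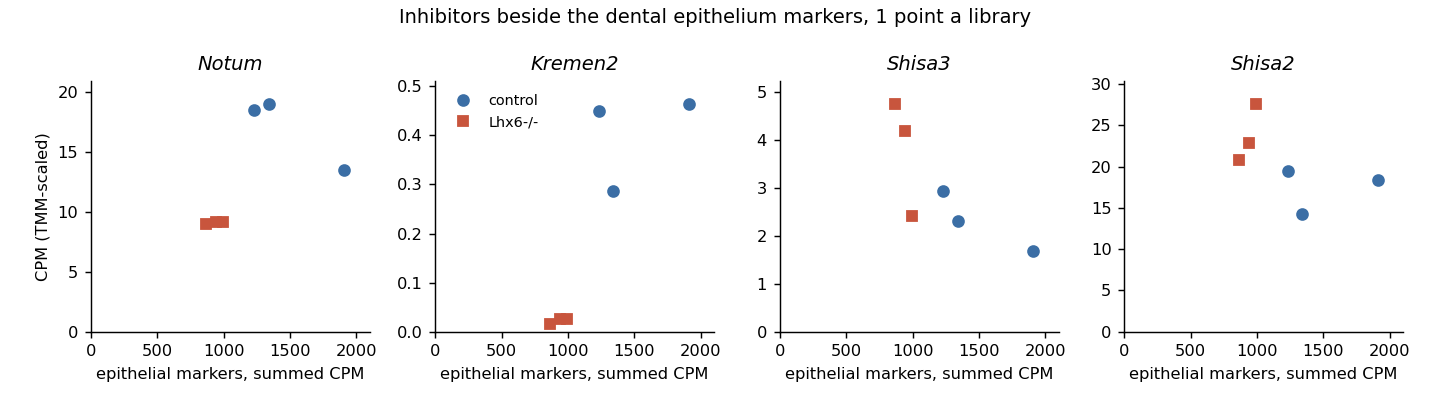
Levels of Notum, Kremen2, Shisa3 and Shisa2 in TMM-scaled CPM (vertical axes) against the summed CPM of 9 dental epithelium markers (horizontal axes), with circles for control and squares for Lhx6-/- libraries. The squares lie at 866 to 994 CPM of epithelial markers and the circles at 1230 to 1910 CPM, so that genotype and epithelial level do not overlap.

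The stretches of DNA just upstream of Kremen2, Shisa3 and Shisa2 are shown because these are the members with a difference for which a promoter sequence was at hand. They come from RefSeq (build GRCm38.p6), read in the direction of transcription, and end at the RefSeq or the GENCODE start, whichever lies further upstream: Kremen2 at chr17:23745834-23746079 (minus strand, 246 bases), Shisa3 at chr5:67607633-67607881 (plus strand, 249 bases) and Shisa2 at chr14:59625031-59625280 (plus strand, 250 bases). Capitals would mark a short motif, searched on both strands, and none occurs in these 3 sequences. The motifs were the core of TCF/LEF sites, CTTTGA, through which beta-catenin acts on its target genes, the core that homeodomain proteins such as Lhx6 tend to bind, TAATTA, and the TATA box of many regulated promoters, searched as TATAAA.
Kremen2: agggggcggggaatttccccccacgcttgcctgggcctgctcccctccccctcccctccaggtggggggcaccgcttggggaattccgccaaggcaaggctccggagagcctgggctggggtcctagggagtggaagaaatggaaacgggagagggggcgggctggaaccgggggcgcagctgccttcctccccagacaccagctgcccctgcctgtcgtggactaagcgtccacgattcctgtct
Shisa3: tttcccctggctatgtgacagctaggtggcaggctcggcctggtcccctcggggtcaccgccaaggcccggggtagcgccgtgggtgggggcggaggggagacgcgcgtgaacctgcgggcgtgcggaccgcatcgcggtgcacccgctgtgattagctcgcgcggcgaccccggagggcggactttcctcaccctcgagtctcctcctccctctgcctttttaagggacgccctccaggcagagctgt
Shisa2: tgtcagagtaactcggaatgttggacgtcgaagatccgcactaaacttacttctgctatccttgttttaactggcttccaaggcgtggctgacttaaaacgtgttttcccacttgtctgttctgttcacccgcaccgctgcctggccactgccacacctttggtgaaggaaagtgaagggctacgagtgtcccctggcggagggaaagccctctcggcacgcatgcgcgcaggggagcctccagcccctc
Over 27025 mouse promoters of the same length, the TCF/LEF core occurred in 14.0%, the homeodomain core in 4.9% and the TATA box in 13.0%, so a promoter without these letters is common. The promoters of Kremen2 and Shisa3 were rich in G and C, at 68.0% and 69.6% of the 250 bases before the RefSeq start against a median of 52.0%, and Shisa3 held 25 CG pairs against a median of 6. Shisa2 had 56.0% G and C and 14 CG pairs. Of the 6 members found in the table, Dkk2 held the TATA box in the last 32 bases before its start, and Sost held none of the 3 motifs. The part of the Dkk1 promoter outside the GENCODE gene (81 bases) held no whole motif. Over the 250 bases before its RefSeq start, however, Dkk1 held the TCF/LEF core at bases -117 to -112 and, on the other strand, -174 to -169. It also held the TATA box there, at -54 to -49. These Dkk1 matches lie in the GENCODE gene or reach into it. A match in these letters is a description of the sequence and not a measured binding site.

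The secreted inhibitors that bind Lrp co-receptors did not meet the rule. Dkk1 (chr19:30545863-30549665, minus strand, mm10) was measured at 31.4, 33.4 and 30.6 CPM in control replicates 1, 2 and 3 and at 25.3, 28.4 and 35.2 CPM in Lhx6-/- replicates 1, 2 and 3. Its highest and its lowest value were both in mutant libraries, and the SD was 5.02 CPM there against 1.44 CPM in control. Its log2 fold change was -0.10 (standard error 0.11, 95% interval -0.34 to 0.14, adjusted p = 0.855 from edgeR). Dkk2 (chr3:132085292-132180304, plus strand, mm10) was measured at 8.68, 10.4 and 9.23 CPM in control and at 8.17, 10.2 and 7.62 CPM in Lhx6-/- replicates 1, 2 and 3. The groups overlapped and differed by -0.13 on the log2 scale (standard error 0.14, 95% interval -0.44 to 0.19, adjusted p = 0.863 from edgeR).

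Dkk3 (chr7:112116017-112159057, minus strand, mm10) was the most abundant Dkk gene per kilobase. It was read at 76.8, 69.9 and 73.4 CPM in control replicates 1, 2 and 3 and at 86.5, 78.1 and 77.9 CPM in Lhx6-/- replicates 1, 2 and 3. The mutant libraries all lay above the control libraries, but the gap was small, with means of 80.8 ± 4.89 and 73.4 ± 3.44 CPM (SD, n = 3). Its log2 fold change was 0.14 (standard error 0.07, 95% interval -0.02 to 0.30, adjusted p = 0.584 from edgeR). Dkk4 was not analysed here, since the table as given has no entry under that name.

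Sclerostin is best known as a product of osteocytes that restrains bone formation through Lrp5 and Lrp6. Sost (chr11:101962458-101967015, minus strand, mm10) was measured at 15.2, 19.3 and 15.0 CPM in control replicates 1, 2 and 3 and at 12.3, 11.9 and 19.7 CPM in Lhx6-/- replicates 1, 2 and 3. Lhx6-/- replicate 3 was the highest of all 6 libraries and the other mutant libraries were the lowest, so the mutants did not move together. The log2 fold change of Sost was -0.17 (standard error 0.20, 95% interval -0.62 to 0.27, adjusted p = 0.864 from edgeR), and without Lhx6-/- replicate 3 it was -0.44 (adjusted p = 0.292 from edgeR), still under 1.5-fold. With the epithelial level as covariate it was 0.22, of the other sign. Osteocyte markers summed to 726 to 764 CPM in control and 763 to 833 CPM in Lhx6-/- libraries, with 0 of 5 called by edgeR, DESeq2 or limma and 1 (Mepe) at an unadjusted p under 0.05 from edgeR. Fgf23, a defining hormone of osteocytes, reached no more than 0.611 CPM. Lrp4, which binds sclerostin and aids its action, was at 130 ± 14.1 CPM in control and 129 ± 5.37 CPM in Lhx6-/- tissue.

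Sostdc1 (chr12:36314139-36318452, plus strand, mm10), the most abundant inhibitor, was measured at 61.4, 60.0 and 58.0 CPM in control replicates 1, 2 and 3 and at 62.2, 52.9 and 56.0 CPM in Lhx6-/- replicates 1, 2 and 3. The highest and the lowest value were both from mutant libraries. Its log2 fold change was -0.07 (standard error 0.08, 95% interval -0.24 to 0.10, adjusted p = 0.853 from edgeR). Of the 4 BMP ligands that Sostdc1 can bind, Bmp2 met the rule, with 23.6 ± 3.34 CPM in control and 40.0 ± 1.95 CPM in Lhx6-/- tissue (SD, n = 3; adjusted p = 0.00879 from edgeR), while Bmp4, Bmp6 and Bmp7 did not. Bmp6 was higher (0.39 on the log2 scale) at an unadjusted p under 0.05 from edgeR.

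The width of the intervals shows how large a change could still be present. For Dkk1, Dkk2, Dkk3, Kremen1 and Sostdc1, 5 of the 10 members, the whole 95% interval lay within 1.5-fold in either direction. For Sost it reached 1.53-fold lower, and for Shisa2 it reached beyond 1.5-fold higher, so these libraries leave room for changes of that size. The directions of Dkk1, Dkk2, Dkk3, Kremen1 and Sost, whose 95% intervals all include no change, turned under at least 1 of the alternative fits.

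**Figure D5:**
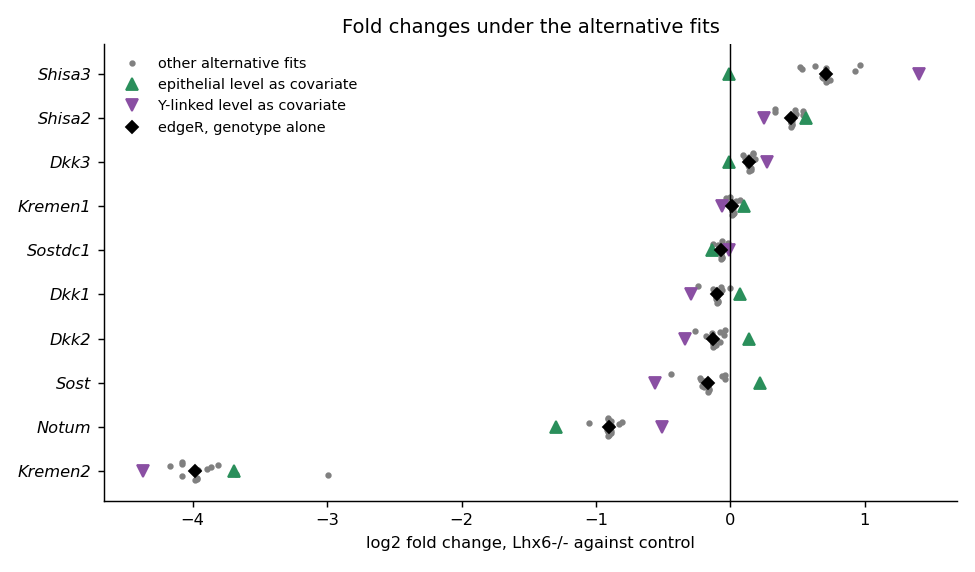
Log2 fold change of each inhibitor under the edgeR fit of genotype alone (black diamonds), with the epithelial level as covariate (green triangles), with the Y-linked level as covariate (purple triangles) and under the other alternative fits (grey points). Kremen2 stays at -2.99 or lower and Notum at -0.51 or lower in the fits shown, while Shisa3 runs from -0.01 to 1.40.

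To place these genes in their pathway, the other genes of Wnt signaling were read from the same fit. Of 13 other Wnt antagonists, 2 rose (Sfrp2 and Frzb) and 1 fell (Sfrp5) by the rule, where 3.28% of all tested genes met it. Limma voom did not call Sfrp5. An unadjusted p under 0.05 from edgeR was reached by 7 of the 13, against 9.81% of all genes. Besides these 3 they were Wif1, Trabd2b and Igfbp4 (higher) and Rnf43 (lower). The list summed to 1170 to 1280 CPM in control and 1460 to 1700 CPM in Lhx6-/- libraries. Sfrp2, a secreted Frizzled-like protein that binds Wnt, was at 146, 102 and 125 CPM in control replicates 1, 2 and 3 and at 312, 216 and 276 CPM in Lhx6-/- replicates. The groups of Sfrp2 did not overlap (1.11 on the log2 scale, standard error 0.17, adjusted p = 0.0429 from edgeR). The study had singled out Sfrp2 and Frzb on these same libraries, and the paper then reported both as higher by RNAscope and RT-qPCR. Frzb was at 37.4 ± 1.34 CPM in control and 61.5 ± 6.25 CPM in Lhx6-/- tissue (adjusted p = 0.00576 from edgeR). Sfrp5 was at 22.3 ± 3.9 and 14.5 ± 4.02 CPM with overlapping groups (adjusted p = 0.374 from edgeR). Thus, with Kremen2 left out, Notum and Sfrp5 were lower by the rule while Sfrp2, Frzb and Shisa3 were higher. The groups of Sfrp5 and of Shisa3 overlapped. Among these antagonists only Notum (lower), Sfrp2 and Frzb (both higher) had an adjusted p under 0.05 from edgeR. Kremen2, also lower, was left out because it had reached the fit through its control libraries alone.

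Of 17 Wnt ligands, 0 rose and 2 fell by the rule. An unadjusted p under 0.05 from edgeR was reached by 6 of the 17, Wnt5b and Wnt9a being higher and Wnt3, Wnt4, Wnt7a and Wnt7b lower. Wnt3 was a rare transcript that, like Kremen2, passed the filter only through control, with 27, 12 and 10 counts in control replicates 1, 2 and 3 and 1, 3 and 4 counts in Lhx6-/- replicates (adjusted p = 0.312 from edgeR). Wnt7b was at 5.67, 12.4 and 10.6 CPM in control and at 6.07, 6.36 and 6.65 CPM in Lhx6-/- libraries, with overlapping groups (adjusted p = 0.473 from edgeR), and its log2 fold change ran from -1.05 to 0.17 over 18 alternative fits. Wnt4 was 1.44-fold lower, under the 1.5-fold of the rule, with an adjusted p of 0.00879 from edgeR. By RNAscope at PN4.5, the paper saw no significant change in Wnt4. By edgeR, DESeq2 or limma, 0 of 3 Lrp genes, 0 of 7 R-spondin and Lgr genes and 0 of 8 genes of Wnt acylation and glypicans met the rule, with 1 (Lrp6), 1 (Rspo1) and 0 at an unadjusted p under 0.05 from edgeR. Lrp6, the partner of Dkk and Kremen proteins, was at 51.2 ± 4.19 CPM in control and 59.3 ± 5.01 CPM in Lhx6-/- tissue (0.21 on the log2 scale, adjusted p = 0.435 from edgeR). Of 12 target genes of beta-catenin, 0 met the rule by edgeR or DESeq2, 1 (Sp5, a rare transcript) by limma voom, and 3 (Tcf7, Nkd1 and Rnf43) had an unadjusted p under 0.05 from edgeR. Of these 3, Tcf7 was higher in Lhx6-/- libraries (0.22 on the log2 scale), while Nkd1 (-0.47) and Rnf43 (-0.28) were lower, each with groups that did not overlap. Axin2 was at 20.3, 21.1 and 21.8 CPM in control and at 19.2, 23.4 and 17.3 CPM in Lhx6-/- replicates 1, 2 and 3, with overlapping groups (-0.08 on the log2 scale, standard error 0.11, adjusted p = 0.897 from edgeR). The paper reported Axin2 as lower in the Lhx6-/- furcation region, mainly in its middle apical area. It showed this by RNAscope on sections and quantified it at a later age than that of these libraries.

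The genes whose levels ran most like those of Notum over the 6 libraries were Luzp2, Pou2af1 and Rtn1, which differed from it by 0.105, 0.131 and 0.132 (root mean square difference in log2 CPM, each gene centred on its own mean, over 15120 genes with a mean of at least 1 CPM). Luzp2 was at 2.2, 1.42 and 2.47 CPM in control replicates 1, 2 and 3 and at 1.18, 1.14 and 1.1 CPM in Lhx6-/- replicates. It was picked for its likeness to Notum in these libraries, so a shared profile follows from that choice. For Shisa3 the nearest were Amer2 (0.119), Duxbl2 (0.119) and Gng8 (0.124). For Kremen2, itself under that level, the nearest of the genes with a mean of at least 1 CPM were Gm7816, AY036118 and Gabrg3, which differed from it by 0.951, 0.995 and 0.997 and so were not close, and rarer genes were not searched.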

How the data were processed

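RNA of laser-captured apical furcation tissue was sequenced as single-end reads from 3 control and 3 Lhx6-/- libraries. The authors aligned the reads to mm10 with STAR 2.6.1d and quantified them in Partek, and the deposited values are estimated counts per gene that need not be whole, without normalization, for genes whose highest count is at least 10. A deposited table of the authors' own comparison (scores such as mean values, ratios, fold changes, p-values and false discovery rates) was used only for gene names, coordinates and, through its mean values, for testing the order of the count columns (largest relative deviation 1.52e-07). The gene annotation and the use of strand are not given in the sources used here.

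Estimated counts were rounded and fitted with edgeR 4.0.16 in R 4.3.3 (TMM scaling, filterByExpr, robust quasi-likelihood test of genotype, two-sided, Benjamini-Hochberg adjustment over all tested genes). Standard errors come from the size of the change and the F statistic. The rule of the study, 1.5-fold or more at p under 0.05 before adjustment, was kept. A permutation of 3 against 3 libraries cannot go below an exact p of 0.1, so no gene was tested alone. Exon lengths came from GENCODE vM21 on mm10 and promoters from RefSeq, which held 6 of the 10 members. Counting intervals cover counting error only, since reads carried no molecular identifiers. The code was tested on simulated counts. Alternatives were other scalings and filters, DESeq2 1.42.0, limma 3.58.1, covariates, other thresholds, blocking on the replicate number and dropping single libraries.

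The members, the lists and the tests were chosen with earlier results of these data known. Genes named were the members, Lhx6, Axin2, genes of the pathway lists that met the rule or had an adjusted p under 0.05, and for each member that met the rule the 3 genes with the most similar levels. Lrp4, Lrp6, Xist, the marker genes and the antisense genes were named outside this rule, after their values were seen. The same holds for genes named for an unadjusted p under 0.05 from edgeR or beside counts of 0. It also holds for the levels per 1000 CPM of epithelial markers. Plots were made in Python 3.11.15 using matplotlib 3.10.9.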

Additional observations from a re-analysis of the deposited data

How the results depend on the processing

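Of 179 values of single members under the alternative fits, 164 kept their direction and their side of the rule, 5 kept the direction and lost the rule, and 10 turned direction. The count of 3 members that met the rule was 2 to 3 when 1 library was left out and 1 with a fold of at least 2. It was 2 with the epithelial level as covariate, 2 with the Y-linked level and 2 with a mean of at least 1 CPM. A p under 0.01 from edgeR gave 2, and a fold of at least 1.2 gave 4. The count of 1 member with an adjusted p under 0.05 was 2 with the DESeq2 Wald test (Notum and Kremen2), 0 with the Y-linked level as covariate, and 0 to 1 when 1 library was left out. With the longest transcript as length, 8 of 10 members kept their rank. Turned directions were, with the epithelial level as covariate, Dkk1 0.07, Dkk2 0.14, Dkk3 -0.01, Sost 0.22 and Shisa3 -0.01, with the Y-linked level as covariate, Kremen1 -0.06, and with 1 library left out, Dkk1 0.00 without Lhx6-/- replicate 1 (range -0.24 to 0.00) and Kremen1 -0.02, -0.03 and -0.00 without control replicate 1, Lhx6-/- replicate 2 and Lhx6-/- replicate 3. Members that kept their direction and lost their call were Notum with the Y-linked level as covariate (-0.51) and Shisa3 in 4 of the fits that left out a library (0.52 to 0.71). Shisa3 also lost its call with the epithelial level as covariate, where its direction turned. A mean of at least 1 CPM removed Kremen2, which then has no value. The epithelial level left no overlap between genotypes, and the fit with it as covariate called 8 genes of all tested at an adjusted p under 0.05. Same-numbered control and Lhx6-/- replicates did not deviate together (correlations of 0.0256, -0.0288 and -0.0314 over genes). Over so few libraries this cannot exclude a pairing, and the paper speaks of littermates and of 3 pairs of samples. Replicate numbers here are those of the sample titles, and the Lhx6-/- libraries carry other numbers in the deposited counts. With the replicate block 3 members met the rule and 1 had an adjusted p under 0.05, with log2 fold changes of -0.89 for Notum, -3.96 for Kremen2 and 0.70 for Shisa3. The causes were not tested. For Kremen2 counting error limits the precision, and for the other members the spread between 3 libraries does.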

Other observations

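Other marker lists were read beside the inhibitors. Endothelial markers summed to 233 to 244 CPM in control and 270 to 316 CPM in Lhx6-/- libraries, with 6 of 6 higher and Cldn5, a tight junction gene of vessels, meeting the rule (14.7 ± 0.997 and 22.9 ± 1.1 CPM, SD, n = 3, adjusted p = 0.014 from edgeR). Erythroid markers summed to 2960 to 3690 CPM in control and 1590 to 2320 CPM in Lhx6-/- libraries, and 3 of 5 (Hba-a1, Hbb-bs and Alas2) were lower by the rule. Odontoblast markers summed to 5550 to 6060 CPM in control and 6690 to 7370 CPM in Lhx6-/- libraries, with 0 of 5 called by edgeR, DESeq2 or limma and 1 (Dspp) at an unadjusted p under 0.05 from edgeR. The sums of the osteoblast, periodontal ligament, leukocyte, osteoclast, muscle and glial lists had ranges that overlapped between the genotypes, and the same tools called 0 of their members, with 1 each of the osteoblast (Bglap2), ligament (Tnmd), muscle (Myh8) and glial (Sox10) lists at an unadjusted p under 0.05 from edgeR. Of 7 ameloblast markers 0 reached 1.5-fold under the rule by these tools, while Amtn lay lower in Lhx6-/- libraries without overlap (280 ± 2.86 and 193 ± 21.7 CPM, SD, n = 3, adjusted p = 0.021 from edgeR). Their part in the levels of the inhibitors was not tested.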
